A study of Mus musculus with 6 samples.

Results

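The imprinted loci that carry their methylation on the paternal allele were examined in male germ cells of mice: H19 and Igf2 on chromosome 7, Dlk1, Meg3, Rtl1 and Dio3 on chromosome 12, and Rasgrf1 on chromosome 9. The 7 genes were chosen by name, by a rule that used no measured values, though with earlier results of these data known. A cytosine counted as theirs where it lay in the gene, within 1 kb of its ends, or upstream of it by up to 5 kb for H19, 15 kb for Meg3 and 40 kb for Rasgrf1. In all, 1203 such cytosines appeared in 1 library or more and 609 appeared in each of the 6, out of 2206320 cytosines used across the genome. Igf2 held 245 of them, Rasgrf1 104, Dio3 83, Meg3 66, Dlk1 46, Rtl1 43 and H19 24, and 2 cytosines just past the end of Meg3 were also in the annotated span of Rtl1.

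DNA methylation was measured by reduced representation bisulfite sequencing, in which DNA cut at fixed restriction sites is treated with bisulfite, so that an unmethylated cytosine reads as T and a methylated one as C. The 3 Control libraries and the 3 CSDS libraries came from genomic DNA of male germ cells, CSDS standing for chronic social defeat stress, a protocol in which an animal is repeatedly defeated by an aggressor. No other treatment separates the groups in the labels. Strain, age, germ cell stage and the number of animals behind each library are not given in the sources used here. The p-values therefore cannot be said to measure the spread between animals. Those of permutation tests rest on the spread between these libraries, which may be technical. For single cytosines they rest mostly on read counts and on a dispersion shared over the genome.

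Imprinted genes are expressed from 1 parental allele according to methylation that was set in the germ line. At most imprinted domains the methylated control region comes from the oocyte, and only at a few, including those described here, is it set in the male germ line before meiosis. The H19 control region binds the insulator protein CTCF when unmethylated and decides whether enhancers reach Igf2, a fetal growth factor, or H19, a non-coding RNA. The control region upstream of Meg3, also a non-coding RNA, governs the protein-coding genes Dlk1, Rtl1 and Dio3 of the same cluster. Rasgrf1, a guanine nucleotide exchange factor, has a methylated region far upstream of its start.

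Reduced representation reads only part of each locus. To show which CpGs the levels below rest on, the 250 bases before a RefSeq transcript start (GRCm38.p6) are given for the annotated starts with the most data, 5′ to 3′ on the strand of the gene, with CpGs listed in all 6 libraries in capitals. The Meg3 stretch is chr12:109540746-109540995 (plus strand) and holds 4 such CpGs. The Dio3 stretch is chr12:110278980-110279229 (plus strand), with 15. The Igf2 stretch is chr7:142658805-142659054 (minus strand), before an internal start of the gene, with 8.
Meg3: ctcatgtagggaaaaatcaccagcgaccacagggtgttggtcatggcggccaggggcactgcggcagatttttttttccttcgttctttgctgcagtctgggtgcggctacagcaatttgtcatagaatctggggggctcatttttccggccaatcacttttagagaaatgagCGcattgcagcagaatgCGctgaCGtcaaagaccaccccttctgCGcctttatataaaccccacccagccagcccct
Dio3: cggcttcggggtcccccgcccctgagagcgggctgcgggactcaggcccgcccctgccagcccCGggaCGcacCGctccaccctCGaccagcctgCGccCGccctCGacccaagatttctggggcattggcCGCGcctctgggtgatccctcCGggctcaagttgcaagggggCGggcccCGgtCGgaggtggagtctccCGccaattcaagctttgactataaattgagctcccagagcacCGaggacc
Igf2: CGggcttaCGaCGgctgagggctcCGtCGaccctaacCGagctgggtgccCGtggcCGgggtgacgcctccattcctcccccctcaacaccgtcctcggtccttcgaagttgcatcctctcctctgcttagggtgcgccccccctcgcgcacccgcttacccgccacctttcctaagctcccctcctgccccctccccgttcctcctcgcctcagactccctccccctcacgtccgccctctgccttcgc
CCGG, the site that reads the same on both strands, holds 3 capital CGs of Dio3, the first of them included, and 1 of Igf2, its last. The same 4 letters occur in 52.8% of 32851 RefSeq promoters, each searched from 250 bases before its start to 50 after it. Over windows of that span, methylation was low in both groups. Meg3 stood at 13.6% ± 1.99 (SD, n = 3) in Control and 13.5% ± 6.36 in CSDS over 7 cytosines. Dio3 stood at 12.1% ± 1.56 and 8.57% ± 1.7 over 38 cytosines, and Igf2 at 15.4% ± 0.496 and 11.9% ± 2.02 over 16 cytosines.

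The libraries differed in ways that touch what follows. Each listed between 2420308 and 3156788 cytosines, at a median coverage of 44 to 50 reads. The mean level over all used cytosines was 43.1 to 43.4% in Control, 42.6% in CSDS replicate 1, and 39.5% and 39.7% in CSDS replicates 2 and 3. Over 27 CpG cytosines of the mitochondrial genome, the median share of reads showing C was 8.84 to 10.04% in Control and 8.497% in CSDS replicate 1, against 4.41% and 4.53% in CSDS replicates 2 and 3. CSDS replicates 2 and 3 therefore stand apart in both measures, and differences are also given after a correction in which the unmethylated share of each cytosine is divided by 1 minus its library's mitochondrial share. Whether that share measures incomplete conversion of nuclear DNA is not known, and the correction gave a group mean below 0 at 319 of the 609 cytosines, so corrected values serve only to compare the groups and are not methylation levels. With CSDS replicate 1 set alone against Control, 58.1% of the 609 cytosines were lower in CSDS (51.5% of all cytosines), with a median difference of -1.30 points (-0.29 points over all cytosines).

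The bands placed upstream of H19, Meg3 and Rasgrf1 to take in the control regions were highly methylated in both groups. Their bounds are distances from the gene start, and the few cytosines read in them may lie outside the control region proper. The H19 band, 2 to 5 kb upstream of the gene start, was read at 4 cytosines of 2 CpGs at chr7:142581142-142581188. Its level was 98.5, 96.5 and 98.5% in Control and 94.8, 95.7 and 94.5% in CSDS, from 149 to 289 reads per library. Every CSDS library lay below every Control library, a difference of -2.86 points between means of 97.9% ± 1.18 and 95.0% ± 0.613 (exact two-sided permutation test, p = 0.1, the smallest that 3 libraries against 3 can give, adjusted p = 0.375 over 15 sub-regions). The correction left this difference at -2.96 points with the groups still apart, and CSDS replicate 1 alone was -3.08 points from the Control mean. Because the correction scales the unmethylated share, it moves levels this high only slightly and could hardly change this result. None of the 4 cytosines was apart between the groups on its own. The groups overlapped with reads summed over cytosines (-2.98 points) and at a coverage minimum of 20 (-2.99 points). In both the exact permutation p was 0.2. The direction turned with another choice of cytosines: over cytosines listed in at least 1 library of each group the difference was 0.505 points.

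At the Meg3 band, 10 to 15 kb upstream, 11 cytosines stood at 98.5, 97.9 and 96.6% in Control and 95.2, 93.3 and 98.4% in CSDS. The groups overlapped, since CSDS replicate 3 was as high as the Control libraries, and the difference of -2.03 points gave p = 0.3 in the exact permutation test. These cytosines lay between 11237 and 14318 bp upstream, 9 of them at the far end of that stretch. The Rasgrf1 band, 25 to 40 kb upstream, was read at 6 cytosines of 3 CpGs at chr9:89874612-89874692. It was lower than the others, at 90.7, 91.2 and 87.6% in Control and 92.0, 87.8 and 88.2% in CSDS. Here the groups overlapped, with a difference of -0.484 points (exact permutation p = 1) whose sign turned when CSDS replicate 2, CSDS replicate 3 or Control replicate 2 was left out. Another 8 cytosines between 23518 and 23726 bp upstream of Rasgrf1 ranged from 81.4 to 93.1% in Control and from 83.2 to 94.1% in CSDS.

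**Figure D1:**
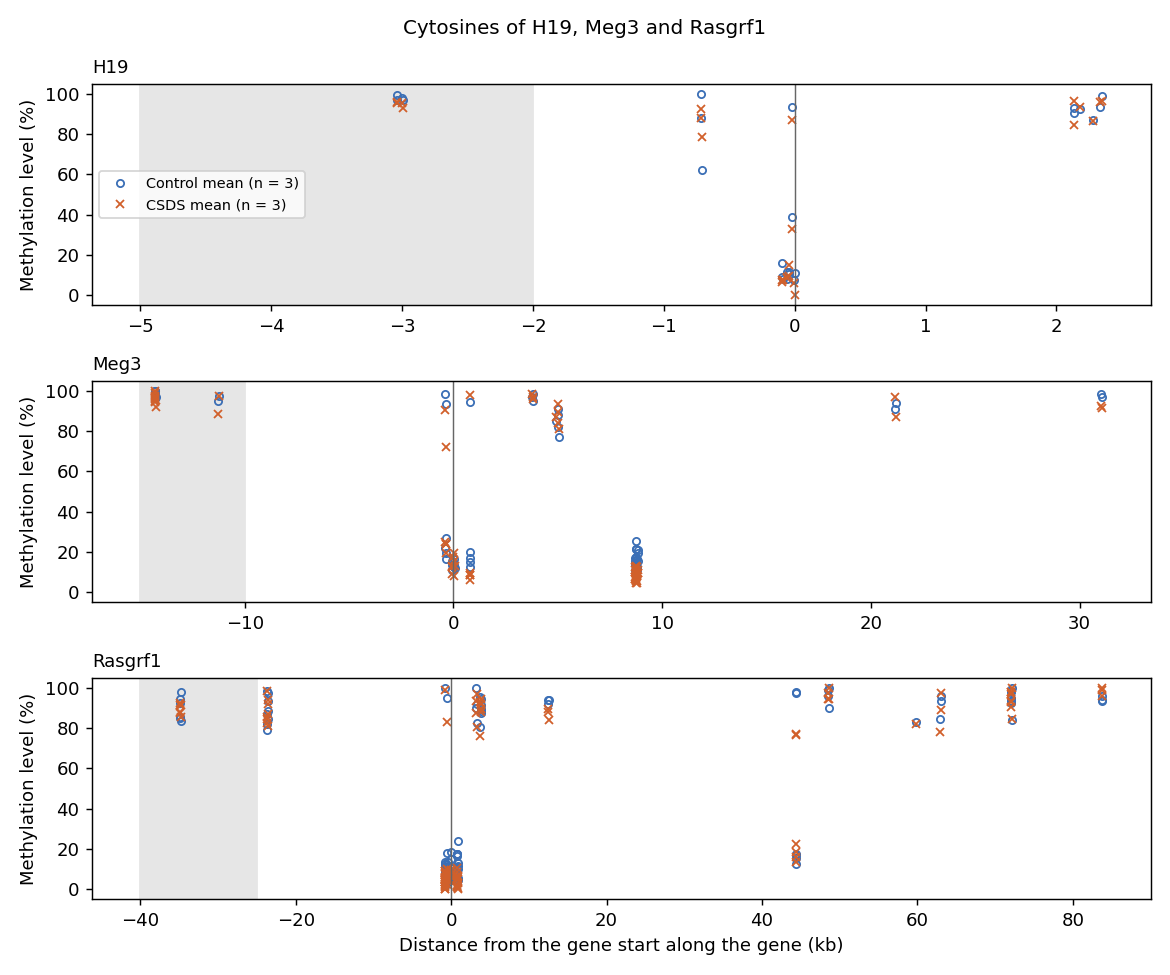
Methylation level (%) of each cytosine of H19, Meg3 and Rasgrf1 against distance from the gene start in kb, as means of 3 Control (circles) and 3 CSDS libraries (crosses), with the upstream bands shaded. Cytosines in the shaded bands lie high in both groups, and those at the gene starts mostly low.

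The label of paternal imprints and that of male germ cells were checked against each other at maternally methylated domains, which germ cells of the male line should lack. Of 13 such genes fixed for the check, 11 had data in their start window, 1 kb either side of the gene start. Their levels ran from 11.1% (Kcnq1ot1) to 22.4% (Peg3) in Control and from 7.23% (Grb10) to 20.3% (Peg3) in CSDS, far below the upstream bands of the paternal domains in the same libraries. These windows follow the annotated gene start and may miss the methylated region of a gene. Start windows of 10 imprinting machinery genes, described below, were as low in Control (6.67 to 16.6%). Low levels at a gene start therefore check the label only weakly.

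Along the H19 gene itself the pattern changed within a short distance. Its annotated span is chr7:142575530-142578146, transcribed from the minus strand. The 11 cytosines from 97 bp before to 3 bp after the start were mostly unmethylated, at 19.04, 23.24 and 19.04% in Control and 15.9, 21.3 and 14.3% in CSDS. Farther out, up to 719 bp upstream, 3 cytosines stood at 84.4, 83.3 and 82.3% in Control and 91.1, 79.0 and 88.5% in CSDS. The groups overlapped in both places. Near the end of the gene, 6 cytosines were again high, at 92.5% ± 2.02 and 92.1% ± 3.04.

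Igf2 (chr7:142650768-142666816, minus strand) was mostly unmethylated, with 204 of its 245 cytosines under 20% in their mean over the 6 libraries. No cytosine of its start window was listed, so its 245 cytosines all lay in the gene body, from 1634 to 14732 bp after the annotated start. Their mean was 16.9, 17.3 and 16.0% in Control and 16.0, 11.97 and 12.06% in CSDS. CSDS replicate 1 sat with the lower Control libraries, so the groups overlapped, and the difference of -3.40 points (exact permutation p = 0.2) came to -0.242 points after the correction. The densest stretch, 132 cytosines at chr7:142658997-142659918, was lower in each CSDS library (12, 12.4 and 11.5% against 10.5, 7.03 and 6.69%), with a difference of -3.87 points as deposited and -0.55 points after the correction, where the groups overlapped. In contrast with most of the gene, 5 cytosines near its far end were high, 14593 to 14732 bp from the start. They stood at 90.3% ± 4.99 in Control and 92.0% ± 0.42 in CSDS. A further 9 cytosines 9317 to 9533 bp from the start were intermediate, at 43.9% ± 8.38 and 40.2% ± 4.78.

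In the chromosome 12 cluster, Dlk1 (chr12:109452485-109463336, plus strand) encodes a transmembrane protein of the Notch ligand family. It was read at a single run of 46 cytosines, 860 to 1483 bp after its start. The 39 of these inside the gene beyond the start window averaged 16.4, 17.1 and 18.4% in Control and 15.3, 10.8 and 10.6% in CSDS. No CSDS library reached the lowest Control library, and the means were -5.07 points apart (17.3% ± 0.992 against 12.2% ± 2.66, exact permutation p = 0.1, adjusted p = 0.375). The difference shrank under other choices: it was -2.04 points after the correction, with the groups still apart, and -1.99 points for CSDS replicate 1 alone. With reads summed over cytosines it was -3.54 points (exact permutation p = 0.2), and over cytosines listed in at least 1 library of each group -2.15 points (exact permutation p = 0.4), in both of which the groups overlapped. The 7 cytosines of the start window were lower, at 6.68% ± 3.48 and 2.78% ± 0.810.

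Meg3 (chr12:109540996-109571729, plus strand) changed level several times along its length. Its start window held 19 cytosines at 30.5, 25.9 and 29.1% in Control and 24.6, 23.2 and 29.98% in CSDS, overlapping groups with a difference of -2.54 points (0.134 points after the correction). Single libraries moved it, to -1.19 points without CSDS replicate 2, -1.53 points without Control replicate 1, -3.86 points without Control replicate 2 and -4.56 points without CSDS replicate 3. It was -0.631 points at a coverage minimum of 30 and -8.41 points over cytosines listed in at least 1 library of each group. Farther in, 3 cytosines 3775 to 3805 bp from the start stood at 96.6% ± 2.92 in Control and 97.1% ± 1.21 in CSDS, and 5 at 4913 to 5068 bp stood at 84.6% ± 6.90 and 87.0% ± 3.63. A stretch of 24 cytosines at chr12:109549676-109549827, 8680 to 8831 bp from the start, was low again. It stood at 14.6, 13.3 and 18.0% in Control and 13.4, 3.83 and 8.26% in CSDS, a difference of -6.78 points (-3.76 points after the correction) in which CSDS replicate 1 overlapped Control.

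Past the end of Meg3, at chr12:109572046-109572089, 2 cytosines averaged 97.4, 97.5 and 98.2% in Control and 91.1, 93.1 and 91.3% in CSDS. The groups did not overlap, also after the correction, which moves levels this high only slightly. However, this pair fell short of the 3 cytosines required for a test, and at each cytosine singly the groups overlapped.

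Rtl1, a gene derived from a retrotransposon and needed in the placenta, is annotated at chr12:109564900-109604418 and is transcribed from the minus strand. All of its 43 cytosines were at 80% or more in their mean over the 6 libraries. Its interior averaged 95.2, 96.3 and 96.2% in Control and 94.5, 95.9 and 96.5% in CSDS, which overlapped (difference -0.245 points, exact permutation p = 0.7). Dio3 (chr12:110279230-110281097, plus strand), which encodes an enzyme that inactivates thyroid hormone, was read only around its start. There 83 cytosines averaged 13.3, 11.5 and 10.5% in Control and 10.8, 8.98 and 6.62% in CSDS. The difference of -2.97 points (exact permutation p = 0.2) became 0.410 points after the correction.

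**Figure D2:**
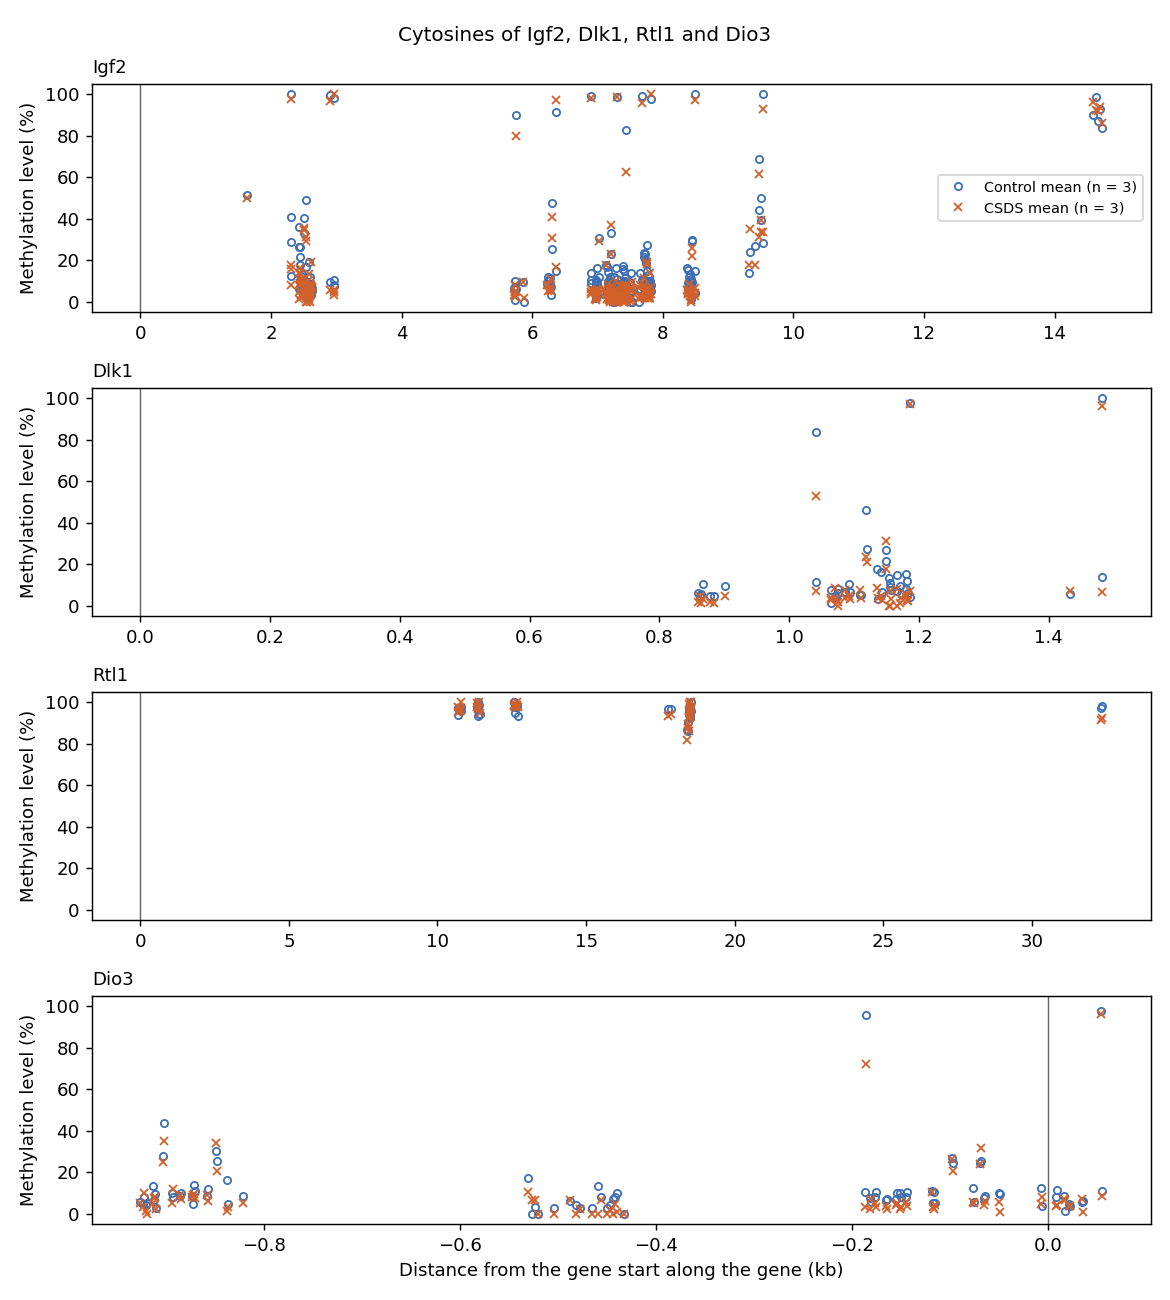
Methylation level (%) of each cytosine of Igf2, Dlk1, Rtl1 and Dio3 against distance from the gene start in kb, as means of 3 Control (circles) and 3 CSDS libraries (crosses). Rtl1 lies at 80% or more throughout, while Igf2, Dlk1 and Dio3 lie mostly under 20%, with single cytosines near 100%.

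Rasgrf1 (chr9:89909508-90026979, plus strand) combined an unmethylated start with a methylated body. The 51 cytosines of its start window averaged 14.9, 13.0 and 11.5% in Control and 10.4, 7.10 and 7.32% in CSDS, with no overlap, -4.81 points between the means (exact permutation p = 0.1, adjusted p = 0.375). After the correction the difference was -1.60 points and the groups overlapped, as they did at a coverage minimum of 30 (-2.76 points), and CSDS replicate 1 alone gave -2.68 points. The 18 cytosines from 775 to 899 bp after the start showed the larger difference, at 16.6, 8.49 and 8.40% in Control and 7.38, 2.32 and 2.89% in CSDS. In this stretch Control replicate 1 was well above the other Control libraries, and without it the difference went from -6.98 to -4.25 points. The 39 cytosines of the gene body averaged 84.5, 85.2 and 84.8% in Control and 84.7, 82.5 and 82.6% in CSDS, which overlapped.

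Of the 15 sub-regions with at least 3 cytosines, the CSDS mean was lower in 15 before the correction and in 12 after it. The groups did not overlap in 3 of them, all lower in CSDS (H19 band, Dlk1 interior, Rasgrf1 start window), and in 2 after the correction (H19 band and Dlk1 interior). At the high levels of the H19 band the correction could hardly change this. For comparison, 15.7% of 162810 tiles of 500 bp across the genome had groups apart with CSDS lower, and 7.67% after the correction. Tiles are unlike most of these sub-regions. Among 13928 start windows, the kind of 5 of the 15, these shares were 36.3% and 7.55%. The CSDS mean was lower in 73.7% of tiles and 96.2% of start windows (58.2% of start windows after the correction). No sub-region passed the permutation test, whose smallest adjusted p was 0.375. Grouped instead, gene by gene, by runs of cytosines no more than 500 bp apart, the 7 genes held 40 runs. Of these, 25 had a Control mean of at least 80%, 9 were under 20% and 6 lay between. The run past the end of Meg3, in the first of these classes, is counted under both Meg3 and Rtl1.

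**Figure D3:**
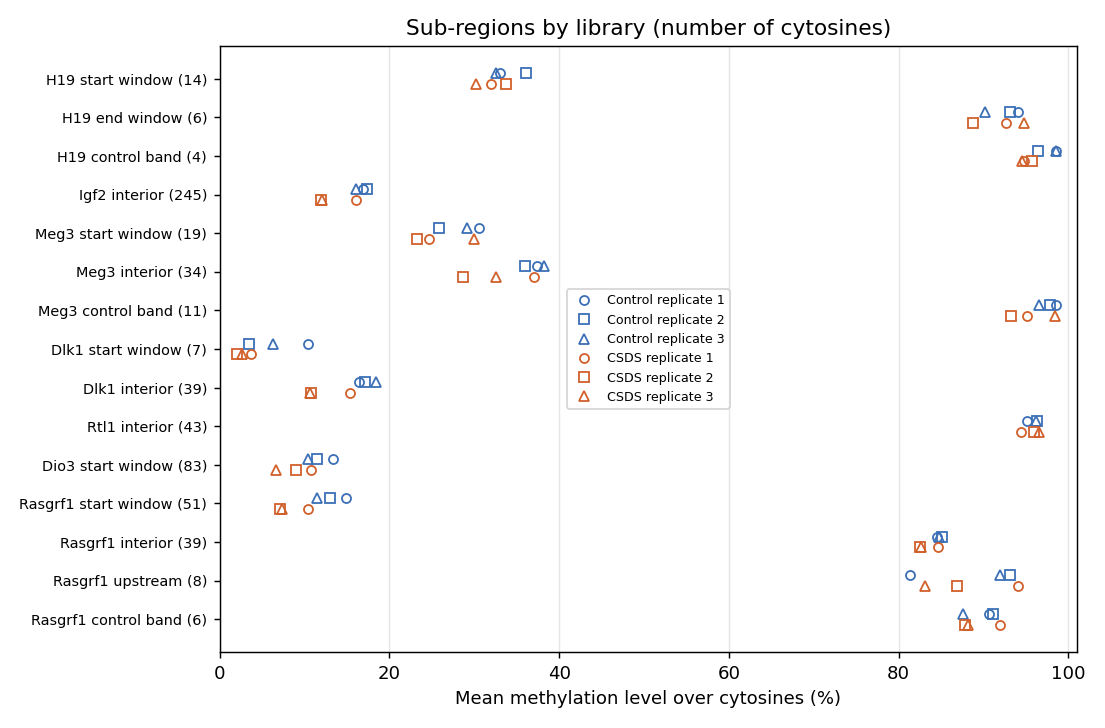
Mean methylation level (%) of each sub-region in each of the 3 Control and 3 CSDS libraries, with the number of cytosines in brackets. The H19 band, the Dlk1 interior and the Rasgrf1 start window are the rows in which the groups do not overlap.

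**Figure D4:**
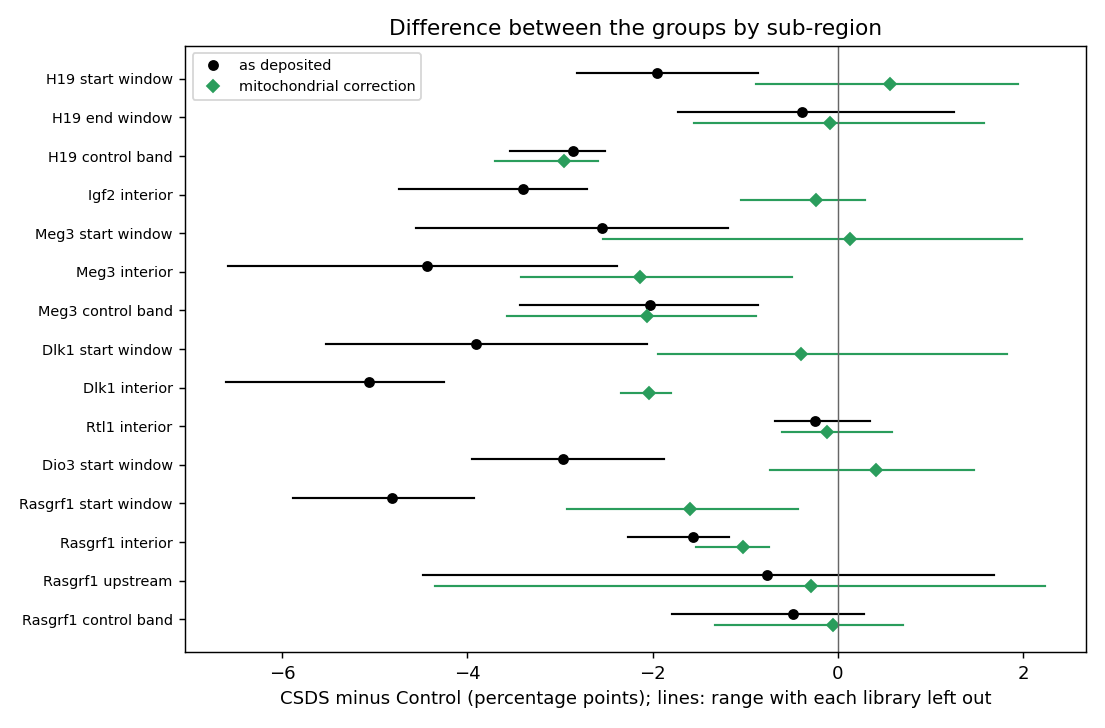
Difference of group means (CSDS minus Control, percentage points) for each sub-region, as deposited (circles) and after the mitochondrial correction (diamonds), with lines spanning the values when each library is left out in turn. All 15 circles lie below 0, while the diamonds lie on both sides of it.

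None of the 609 cytosines differed by 10 points or more with an adjusted p below 0.05, the rule for a call, by the quasi-binomial model or by limma (0.00% of 2182877 cytosines tested genome-wide were called). At an unadjusted p under 0.05 there were 72 of 603 tested, or 11.9%, against 10.8% of all cytosines. Groups were apart with CSDS lower at 77 of the 609 (12.6%, against 10.5% of all), and with CSDS higher at 11 (1.81%, against 1.73%). The first of these counts came to 161 without CSDS replicate 1, where the genome-wide share was 22.7%, to 131 without Control replicate 3 (17.4%) and to 118 without Control replicate 2 (16.9%). After the correction it was 29 (5.42% of all cytosines) and the count with CSDS higher was 37 (5.99%). The CSDS mean was lower at 440 cytosines (72.2%, against 67.9% of all), and at 314 after the correction (50.2% of all). The shares of calls and of separated groups lie near their background.

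The difference was compared between classes of level, set by the mean over the 6 libraries. Over the 415 cytosines of the 7 genes under 20% methylated, the mean was 8.93% in Control and 5.34% in CSDS, and over all such cytosines of the genome the groups stood at 8.59% and 5.33%. Over the 45 cytosines from 20 to 80%, Control was at 37.5% and CSDS at 33.1%, beside 48.55% and 43.74% genome-wide. Over the 149 cytosines at 80% or more, Control was at 94.3% and CSDS at 93.0%, beside 94.3% and 93.4% for all cytosines of that class. The middle class thus had the largest difference and the high class the smallest, in the 7 genes and genome-wide. After the correction the difference was -0.130 points in the low class (0.236 points genome-wide), -2.15 points in the middle class (-3.00 points) and -1.23 points in the high class (-0.712 points).

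Single cytosines were named by the smallest p among those with groups apart, 5 in each direction. That of smallest p was in Dlk1, 1042 bp from its start (chr12:109453527, minus strand), with levels of 82.7, 79.5 and 89.4% in Control and 60.7, 39.2 and 58.1% in CSDS from 39 to 61 reads. Every CSDS library was lower there, by -31.2 points between means (adjusted p = 0.163, quasi-binomial model with dispersion moderated as in limma). The Wilson 95% intervals of the Control libraries together ran from 64.5 to 95.4% and those of the CSDS libraries from 27.0 to 71.9%, so single libraries of the groups were not all separable by counting error. At the CpG 1154 to 1155 bp into Dlk1, both strands were read at 0% in all 3 CSDS libraries, against 13.6, 14.3 and 12% on the plus strand and 6.35, 14.3 and 6.19% on the minus strand in Control. At the plus strand a count of 0 allowed up to 6, 6 and 6.82% in CSDS replicates 1, 2 and 3. The other cytosines lower in CSDS were in Igf2, 7148 bp from the start (-15.4 points), and in Rasgrf1, 794 bp from the start (-14.7 points). Among those higher in CSDS, Igf2 had 1 cytosine 2539 bp from its start at 16.7, 18.6 and 14.5% in Control and 30.1, 34.3 and 23.7% in CSDS (12.8 points, adjusted p = 0.443 in the same limma-moderated model). The remaining 4 were 2 in Igf2 (6.94 and 9.67 points), 1 in Rtl1 (7.75 points) and 1 in Rasgrf1 (5.21 points).

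Summed over tiles of 500 bp, 0 of the 41 tiles with cytosines of these genes were called (0.00% of 162809 genome-wide; 0 also by limma), and 9 had an unadjusted p under 0.05 (22.0%, against 15.6%). Groups were apart with CSDS lower in 7 (17.1%, against 15.7%), and with CSDS higher in 1 (1.80% genome-wide). The CSDS mean was lower in 30 (73.2%, against 73.7%). The tiles named by the same rule were the stretch of Rasgrf1 given above (-6.98 points, adjusted p = 0.174), Igf2 at chr7:142659510-142659918 (-3.19 points) and chr7:142659003-142659435 (-4.89 points), and a Rasgrf1 body tile with CSDS higher (3.74 points). After the correction the first 3 stood at -3.80, 0.215 and -1.64 points with overlapping groups, and the Rasgrf1 body tile at 4.22 points with groups apart. Levels in that body tile are high, where the correction moves them only slightly. Without Control replicate 3 the difference of that body tile was 1.37 points. Without CSDS replicate 1, 2344 tiles were called genome-wide (1.44%), 2316 of them lower in CSDS, and 0 of these held cytosines of the 7 genes. Groups were then apart with CSDS lower in 21 tiles of the 7 genes (36.4% genome-wide). That count was 13 without Control replicate 3 (24.2%), 12 without Control replicate 2 (23.1%) and 2 after the correction (7.67%), when another 2 had CSDS higher (3.70%).

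Cytosines near 100% inside otherwise unmethylated stretches belonged to CpGs whose strands disagreed. Of 248 CpGs of the 7 genes read on both strands, 25 differed by at least 50 points between strands (10.1%), against 8.06% of 903591 across the genome. Igf2 had 12 of them. The Dlk1 cytosine with the smallest p was one, with its partner on the other strand at 9.34%. In the RefSeq promoter windows, where the sequence is known, 9667 of 19889 CpGs within CCGG differed in this way (48.6%), and 0 of 92495 other CpGs did. In the windows of the 7 genes 2 of 4 CpGs in CCGG did, the first capital CG of Dio3 and the last of Igf2 in the sequences above, and 0 of 24 others. The higher strand averaged 96.0% in Control and 88.5% in CSDS over the 25, and was lower in CSDS at 21 (84%, against 61.8% of 72790 such CpGs genome-wide). Groups were apart with CSDS lower at 4 (16%, against 10.4%) and with CSDS higher at 1 in Igf2 (4%, against 1.37%), 6369 bp from its start. Over such CpGs of all promoters the same averages were 94.0% and 89.4%. At the Dio3 site, chosen after its values were seen, the minus strand stood at 96.0, 94.6 and 96.9% in Control and 76.7, 60 and 79.2% in CSDS, while the plus strand averaged 6.85% over the 6 libraries.

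Leaving these CpGs out lowered several intermediate levels. The Meg3 run around the start went from 27.4% to 14.3% in Control, and the H19 run around the start from 20.4% to 10.3%. The Rasgrf1 run 44379 bp into the gene went from 43.0% to 16.5%, but only 2 of its 6 cytosines were left. The difference between groups of that run turned from -5.59 to 2.62 points. Of the differences between groups, that of the Meg3 start window went from -2.54 to -0.974 points, that of the Rasgrf1 interior from -1.56 to -0.631, that of the H19 start window from -1.96 to -1.26 and that of the Dlk1 interior from -5.07 to -4.63. The H19 band holds no such CpG.

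**Figure D5:**
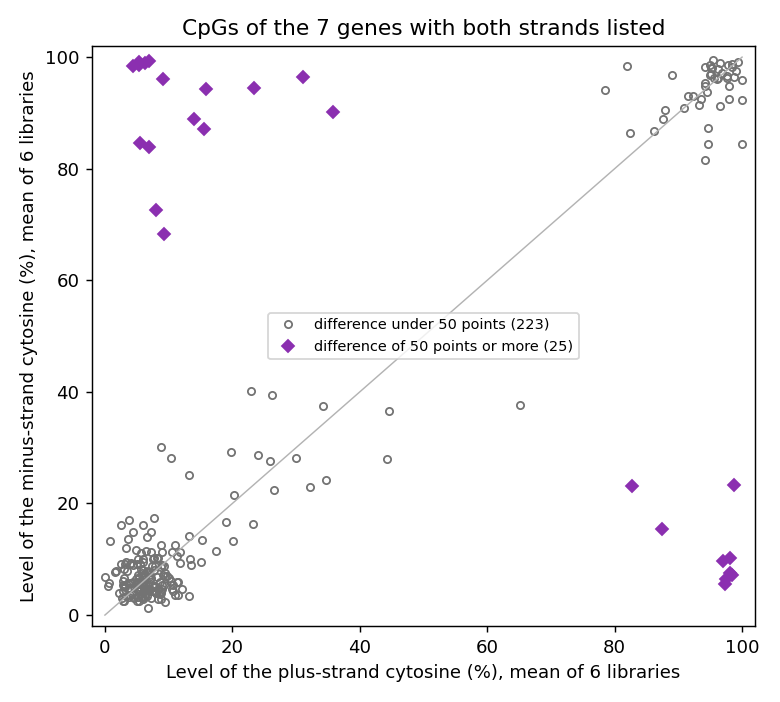
Level of the plus-strand cytosine against that of the minus-strand cytosine (%, means of 6 libraries) for the 248 CpGs of the 7 genes read on both strands. The 25 CpGs with strands at least 50 points apart (diamonds) sit in the corners far from the diagonal, and the other 223 (circles) lie along it.

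Other genes of the domains and of the imprinting machinery were read over their start windows, in which 0.00% of 13928 windows were called. Of 16 neighbours of the 3 domains, 11 were measured and 0 were called, 5 had an unadjusted p under 0.05 (39.8% of all windows), and 9 had a lower CSDS mean (96.2% of all). Groups were apart with CSDS lower in 3 (36.3% of all): Begain, Ppp2r5c, a regulatory subunit of protein phosphatase 2A, and Dync1h1, the heavy chain of cytoplasmic dynein. The largest differences were -4.48 points at Dync1h1, -4.36 points at Tmed3 and -3.61 points at Ppp2r5c. In 0 of the 11 was CSDS higher with groups apart (0.151% of all). Their median of -3.05 points compares with -3.40 points over all windows. After the correction 6 of them had a lower CSDS mean (58.2% of all), and in 0 were the groups apart in either direction (7.55% of all windows were with CSDS lower and 4.13% with CSDS higher).

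Among 18 genes that set, keep, read or remove paternal imprints, 10 were measured and 0 were called, 6 had an unadjusted p under 0.05 (39.8% of all windows), 9 had a lower CSDS mean (96.2%) and in 0 were groups apart with CSDS lower (36.3%). Their median difference was -3.06 points. After the correction 4 of the 10 had a lower CSDS mean, and Tet2 was the 1 window with groups apart, with CSDS higher (4.13% of all windows). Before the correction the largest differences were at Tet1 and Tet3, which oxidise 5-methylcytosine (-5.48 and -3.89 points). Next was Nsd1, a histone H3 lysine methyltransferase (-3.51 points). Corrected, these 3 stood at -2.395, -0.491 and -0.337 points, and the largest difference was 3.90 points at Zfp445. At Tet1 Control replicate 2, at 20.9%, was well above the other Control libraries, at 13.3 and 12.9%. The windows of Dnmt3a, a de novo methyltransferase, and of Dnmt3l, its cofactor in germ cells, did not have 3 cytosines listed in all libraries. Of the 7 genes themselves, 5 had start windows with data, 1 of them apart with CSDS lower (Rasgrf1, against 36.3% of all windows) and 0 apart after the correction (7.55%).

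By the smallest root mean square difference of level over the 6 libraries, among 12363 start windows of other genes, the H19 band was most like Ttll3 (0.710 points), Rpl37rt (1.22 points) and Krt83 (1.32 points). For the Meg3 start window the nearest were Mc3r (2.06 points), Pou5f2 (2.23 points) and Tgfb3 (2.25 points).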

How the data were processed

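Per the submitters' processing notes, the authors used Trim Galore 0.5.0, then Bismark 0.20.0 with the build GRCm38. For each CpG cytosine the deposited tables hold its coverage, a count of reads, and the percent reading C and T, per the file headers. The deposited percent times coverage gave whole reads. Duplicate handling and the conversion rate are not given in the sources used here. Cytosines with a coverage of at least 10 in all 6 libraries were used, leaving out the highest 0.1% by coverage in any library, and strands were kept apart. Sub-region levels are unweighted means over cytosines, and exact two-sided permutation tests compared them, Benjamini-Hochberg adjusted. Cytosines, 500 bp tiles with at least 3 cytosines, and start windows were fitted by a quasi-binomial logistic model, adjusted over the genome and tested on simulated data. Its dispersion was moderated as in limma (3.58.1) and held at 1 or above. For cytosines the shared prior of the dispersion had 119 degrees of freedom, so the spread at any 1 cytosine counted little. Gene bounds and strands came from RefSeq tables (GRCm38.p6), the strands of H19 and Rtl1 and the bounds of the control bands from textbook knowledge. RefSeq tables gave no exons, so exons, introns and untranslated regions were not separated. Named sites are the 5 cytosines and 3 tiles each way of smallest unadjusted p with groups apart, all sub-regions, up to 3 genes per list of largest difference, and the 3 windows most like 2 patterns. Members, lists and rules were chosen with earlier results of these data known. Reads carry no molecular identifiers named in the labels, so intervals and limits (3 counts) cover counting error only. No library pair was identical (correlation 0.967 to 0.982).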

Additional observations from a re-analysis of the deposited data

How the results depend on the processing

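Of 283 differences that another choice moved at all, 259 kept their direction and 24 turned. These include the named cytosines and tiles, which were picked because their groups did not overlap. Where groups do not overlap, leaving out a library cannot turn the direction, so this tally does not measure robustness. No cytosine or tile of the 7 genes was called under any alternative run (limma, a coverage minimum of 20, no minimum difference, the mitochondrial correction, 1000 bp tiles, no strand-discordant CpGs, each library left out). Genome-wide, these runs called at most 1 cytosine (5.85e-05% at a coverage minimum of 20). They called 0 tiles, except 7 with the correction (0.0043%) and 2344 without CSDS replicate 1 (1.44%). Counts of 0 in the 7 genes lie near that background and do not measure robustness. In the tally of 283, which leaves out runs of cytosines, the differences that turned began between -3.19 points (an Igf2 tile) and -0.245 points (Rtl1 interior). The Rasgrf1 band came to 1.69 points at a coverage minimum of 20 and of 30, 0.458 points with reads summed, 0.433 points with strands merged and 2.14 points with CSDS replicate 1 alone. The H19 band came to 0.505 points over cytosines listed in at least 1 library of each group, and the Rasgrf1 interior to 0.504 points. Rasgrf1 upstream came to 1.24 points at a minimum of 30 and 5.28 points with CSDS replicate 1 alone, and the H19 end window to 0.937 points with reads summed and 0.218 points with CSDS replicate 1 alone. The mitochondrial correction turned the H19, Meg3 and Dio3 start windows (0.566, 0.134 and 0.410 points) and the Igf2 tile from 6898 bp (0.215 points). The cause of these turns was not tested.

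With each library left out in turn, the Rasgrf1 band ran from -1.80 to 0.280 points, Rasgrf1 upstream from -4.49 to 1.68, the H19 end window from -1.73 to 1.26, Rtl1 interior from -0.678 to 0.341, the H19 band from -3.54 to -2.52 and the Meg3 band from -3.44 to -0.862. Cytosines with groups apart then numbered 98 to 161 (CSDS lower, 14.5 to 22.7% genome-wide) and 19 to 28 (CSDS higher, 3.09 to 4.39%), and tiles 8 to 21 (20.4 to 36.4%). With CSDS replicate 1 alone they were 145 (23.6% of all cytosines), 103 (18.4%) and 13 tiles (31%). With the correction they were 29 (5.42%), 37 (5.99%) and 2 tiles (7.67%). CSDS replicate 1 alone and removal of strand-discordant CpGs were chosen after seeing the data.

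Replicate numbers did not pair the libraries: deviations of same-numbered libraries correlated at -0.041, -0.048 and 0.003. With the replicate number as a block, 0 cytosines and 0 tiles were called, the sub-region differences did not move, and their smallest exact p was 0.25.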

Other observations

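Read counts in these tables were mostly even. Methylated counts above 0 were odd at 22.8 to 27.3% of the cytosines of the 7 genes, depending on the library, and at 28.9 to 31.4% of all cytosines. In Control replicate 1, 235448 cytosines had 2 methylated reads, while 18116 had 1 and 23057 had 3. The higher strand of CpGs whose strands differed by at least 50 points had odd coverage at 49.7% of values, and the lower strand at 47.0%. At other CpGs read on both strands this share was 37.7%. Median coverage was 25 reads on the higher strand, against 70 on the lower strand. Whether some fragments were counted by more than 1 read was not tested. Wilson intervals and limits from counts of 0 treat each read as independent.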
